A study of Mus musculus with 10 samples.

Results

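Sos2 (ENSMUSG00000034801) was examined in an ATAC-seq experiment that compared intestinal epithelial cells (IECs) of mice with and without the zinc transporter Zip14, the product of Slc39a14. The deposited counts assign 14 peaks to this gene ID, of 245885 peaks with a gene ID in all. The gene was selected on the measured counts of 1 of its peaks, which were higher in KO than in WT mice relative to library size, so the values of that peak, and every sum that holds it, are given as a description without a test. The other 13 peaks were not part of the choice and were tested where their counts allowed it.

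The study compared 5 WT mice (WT1 to WT5) with 5 KO mice (KO6 to KO10) that carried a global deletion of Zip14. Per the study's methods, these were young adult female mice backcrossed to C57BL/6, and the IECs came from the duodenum and upper jejunum, where the labels give the duodenum alone, and were purified by cell sorting. The deletion was present in every tissue of the KO mice and not in the epithelium alone, so an effect of the deletion in IECs and an effect of its loss elsewhere in the body cannot be told apart. Total counts in peaks with a gene ID ran from 5169108 to 15671557 in WT mice, median 8605355, and from 4690971 to 6043771 in KO mice, median 5617646. The KO libraries were therefore shallower in the median, and WT5 was the deepest library. Slc39a14 itself was not paired with an ID, so its deletion was not checked directly. A single peak, that of ENSMUSG00000022094, had 17, 8, 21, 11 and 16 counts in WT1 to WT5 and 0 in each KO mouse. No other peak had 0 counts in every KO mouse and at least 5 in each WT mouse. That ID is not paired with a symbol in the sources used here, and the peak was picked after its values were seen. None of the 27 epithelial, immune, endothelial, stromal and erythroid marker genes considered was paired with an ID, so the cell type label was not checked against markers.

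Sos2 encodes a guanine nucleotide exchange factor that loads RAS proteins with GTP. The adaptor Grb2 brings SOS proteins from the cytosol to activated receptor tyrosine kinases at the plasma membrane, where exchange on RAS starts the RAF-MEK-ERK kinase cascade. Sos2 has a close paralogue, Sos1, and in the intestinal epithelium signalling from the EGF receptor through RAS takes part in the control of proliferation. ATAC-seq uses a transposase that inserts adapters into nucleosome-poor DNA, so the reads counted in a peak measure how accessible that stretch of chromatin was across the cells of a sample. In such bulk samples, a larger share of cells with an open peak and more opening per cell cannot be told apart.

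Sos2 lies on the minus strand of chromosome 12, from 69583761 to 69681852 in RefSeq's annotation of GRCm38.p6, and spans 98092 bases. Its start, and hence its promoter, is at the high-coordinate end. The promoter is shown because it is the regulatory sequence of this gene that the reference provides and because the experiment concerns a metal transporter. It covers chr12:69681803-69682102 on the minus strand, with 250 bases before and 50 bases after the start, and is written 5′ to 3′ with capitals marking matches to the core of the metal response element, the motif bound by the zinc-sensing factor MTF-1.

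Sos2 promoter: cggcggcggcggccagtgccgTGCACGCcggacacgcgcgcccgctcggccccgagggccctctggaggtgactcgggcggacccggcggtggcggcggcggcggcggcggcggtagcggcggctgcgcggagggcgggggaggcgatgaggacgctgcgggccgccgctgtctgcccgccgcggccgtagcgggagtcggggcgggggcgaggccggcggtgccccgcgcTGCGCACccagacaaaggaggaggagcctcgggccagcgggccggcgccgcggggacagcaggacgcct

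The sequence held 54 CpG dinucleotides and 82.7% G and C, against medians of 7 and 52.7% over 32851 RefSeq promoters of the same length. Only 0.347% of the promoters had as many CpG and 0.377% as high a share of G and C, which places it among the promoters richest in CpG. Both strands were searched for each motif. The metal response element core was searched as TGCACNC, with 1 match at bases 22 to 28, and as TGCGCNC, with 1 match at bases 232 to 238, counted from the 5′ end. These forms occur in 12.6% and 15.4% of all promoters, respectively. The shares given for each motif are over all promoters, and promoters of like G and C content were not compared. The GC box GGGCGG had 3 matches, at bases 76 to 81, 133 to 138 and 201 to 206, and is held by 35.7% of promoters. No match overlapped another. The AP-1 motif TGANTCA, the ETS motif CCGGAAG, the CREB motif TGACGTCA and the E-box CACGTG had 0 matches, and occur in 7.81%, 8.86%, 1.79% and 7.15% of promoters. A match says only that these letters are present in this window. Which of the Sos2 peaks covers the promoter was not determined, because the deposited counts list peaks by gene ID and without coordinates.

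The peaks were placed in chromosome order by a running number decoded from how the entries are sorted, and are called peaks 1 to 14 from the low to the high coordinate. The 14 Sos2 peaks were consecutive in this order and came before those of Cdkl1, which lies at a higher coordinate on chromosome 12 (69745167 to 69791196). Gene IDs had a median of 4 peaks, and 7.79% of the 44580 IDs had 14 or more. The counts of Sos2 were unevenly spread over its peaks. Peak 11 held 37.2% and peak 4 held 27.8% of all Sos2 counts of the 10 mice, and the other peaks had at most 44 counts in any mouse. Only peaks 4, 5 and 11, 3 of the 14, passed edgeR's filter on low counts.

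**Figure D1:**
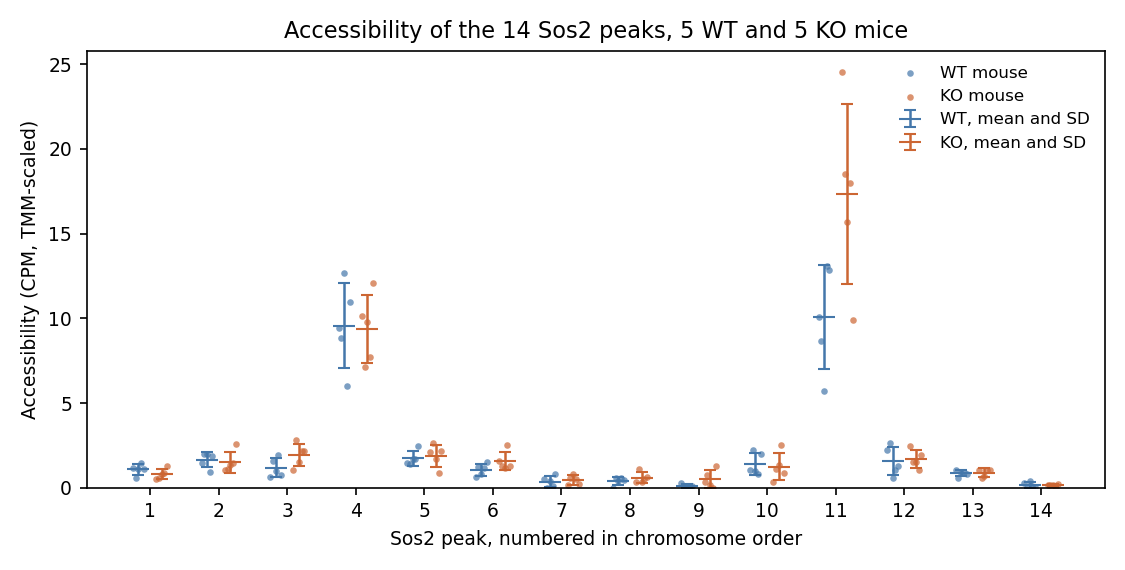
Accessibility of each Sos2 peak in CPM (counts scaled to library size with TMM factors) against the peak's number in chromosome order. Points are mice, horizontal marks are the means and bars the SD of 5 WT and 5 KO mice. Peaks 4 and 11 stand above the rest, with means of 10.1 CPM in WT and 17.3 CPM in KO mice at peak 11, where KO10 lies inside the WT range, and of 9.58 and 9.37 CPM at peak 4.

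Peak 11 is the more accessible peak for which the gene was chosen. Its raw counts were 77, 43, 57, 109 and 228 in WT1 to WT5 and 138, 99, 93, 100 and 46 in KO6 to KO10. Scaled to library size, as CPM with TMM factors, the WT mice had 10.1, 8.66, 5.69, 13.1 and 12.9 CPM. The KO mice had 24.6, 18.5, 15.7, 18.01 and 9.92 CPM in the same order of number. KO6 to KO9 were above every WT mouse, and KO10 was inside the WT range, below WT1, WT4 and WT5. The lowest WT mouse was WT3 and the highest KO mouse was KO6. The means were 10.1 ± 3.08 CPM for WT and 17.3 ± 5.29 CPM for KO (mean ± SD, n = 5 each), a ratio of 1.72, and the fitted log2 fold change was 0.77 (standard error 0.21). The coefficient of variation was 30.6% in WT and 30.5% in KO mice. With each mouse left out in turn, the log2 fold change of peak 11 lay between 0.61, without WT3, and 0.91, without KO10. Under the other library scalings, 4 of 5 KO mice were likewise above every WT mouse, with ratios from 1.61 to 1.71.

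Peak 11 was a strong peak, and only 18.3% of the 80700 tested peaks were stronger. A log2 fold change at least as high was found in 5.19% of all tested peaks and in 0.501% of the 20175 peaks of the top group when peaks were divided into 4 groups by mean count. Most peaks of that group were stronger than peak 11, and its median log2 fold change was -0.08. This gives the place of peak 11 among the peaks and is no test.

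**Figure D2:**
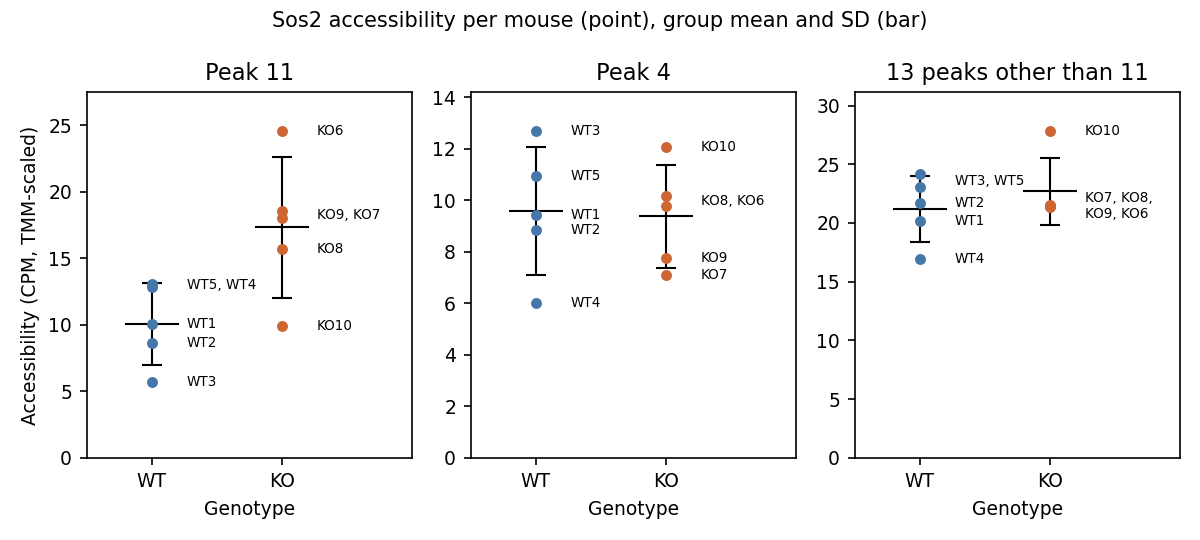
Accessibility in CPM (TMM-scaled) of peak 11, of peak 4 and of the sum of the 13 peaks other than peak 11 in each mouse. Points are mice, and black bars give the mean and SD of 5 mice. KO6 to KO9 lie above all WT mice at peak 11, whereas the genotypes overlap at peak 4 and in the sum of the 13 peaks, where KO10 is the highest mouse at 27.8 CPM.

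The remaining Sos2 peaks were then compared between genotypes. Peak 4, with an accessibility in WT mice close to that of peak 11, had 72, 44, 127, 50 and 194 counts in WT1 to WT5 and 57, 38, 58, 43 and 56 counts in KO6 to KO10. This corresponded to 9.41, 8.86, 12.7, 5.996 and 10.9 CPM in WT1 to WT5 and to 10.1, 7.12, 9.78, 7.74 and 12.1 CPM in KO6 to KO10. All KO mice were within the WT range, and KO10, the lowest KO mouse at peak 11, was the highest at peak 4. The means were 9.58 ± 2.49 CPM for WT and 9.37 ± 1.99 CPM for KO (mean ± SD, n = 5 each). The log2 fold change of peak 4 was -0.05 (standard error 0.19, 95% interval -0.42 to 0.31), and its adjusted p was 0.922 in the quasi-likelihood test of edgeR, adjusted over all peaks by Benjamini-Hochberg. The exact two-sided permutation test gave p = 0.952, where the smallest p that 5 against 5 mice allow is 0.00794. The difference was smaller than the spread between mice.

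Peak 5, next to peak 4 in chromosome order, was much weaker, with 11, 7, 17, 14 and 44 counts in WT1 to WT5 and 12, 14, 10, 5 and 10 in KO6 to KO10. Its means were 1.74 ± 0.435 CPM for WT and 1.90 ± 0.649 CPM for KO (mean ± SD, n = 5 each). The log2 fold change of peak 5 was 0.05 (standard error 0.30, 95% interval -0.53 to 0.64, adjusted p = 0.955 from the same edgeR test), and the exact permutation test gave p = 0.786. The groups overlapped, and the interval was wider than that of peak 4. Of the 2 tested peaks other than peak 11, 0 passed an adjusted p of 0.05 in edgeR or in DESeq2, and 0 passed an unadjusted p of 0.05 in either tool. Over all tested peaks, edgeR's test called 0.0% at an adjusted p under 0.05 and 15.9% at an unadjusted p under 0.05. DESeq2 called 555 of the 80700 peaks at an adjusted p under 0.05 and 9915 at an unadjusted p under 0.05.

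The remaining 11 peaks, with 0 to 35 counts per mouse and group means from 0.0948 to 1.94 CPM, were too weak for the fit over all peaks. Of these, 7 had a higher and 4 a lower mean in KO mice. In none of the 14 peaks were the CPM values of the genotypes without overlap, against 2.42% of all peaks with a gene ID and 3.01% of the tested peaks. Peak 3 had 5, 8, 10, 16 and 13 counts in WT1 to WT5 and 6, 15, 9, 12 and 10 in KO6 to KO10. This was 1.18 ± 0.557 CPM for WT and 1.94 ± 0.669 CPM for KO (mean ± SD, n = 5 each; exact two-sided permutation test, p = 0.0714). Peak 6 had 1.08 ± 0.349 CPM for WT and 1.58 ± 0.548 CPM for KO (mean ± SD, n = 5 each; exact permutation test, p = 0.103). Neither difference passed 0.05, and both peaks lie on the side of peak 4 and away from peak 11. The highest ratio of means, 5.42 at peak 9, rests on 5 counts in all WT mice together and 13 in all KO mice (exact permutation test, p = 0.119). At the peaks next to peak 11, the means were 1.41 ± 0.631 CPM in WT and 1.24 ± 0.805 CPM in KO mice for peak 10 (SD, n = 5; exact permutation test, p = 0.619). They were 1.56 ± 0.834 CPM in WT and 1.71 ± 0.534 CPM in KO mice for peak 12 (SD, n = 5; exact permutation test, p = 0.587). Neither neighbour of peak 11 differed beyond the spread between mice. The p-values of single peaks in this paragraph are not adjusted.

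Summed over the 13 peaks other than peak 11, Sos2 had 20.1, 21.7, 23.1, 16.9 and 24.1 CPM in WT1 to WT5. The KO mice had 21.5, 21.3, 21.4, 21.4 and 27.8 CPM from KO6 to KO10. The KO mice other than KO10 lay within a narrow band inside the WT range. The means were 21.2 ± 2.83 CPM for WT and 22.7 ± 2.86 CPM for KO (mean ± SD, n = 5 each), a ratio of 1.07 (exact two-sided permutation test, p = 0.476). Without peak 4 as well, the 12 weak peaks summed to 11.6 ± 1.32 CPM for WT and 13.3 ± 1.83 CPM for KO (SD, n = 5; exact permutation test, p = 0.143).

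With peak 11 included, the sum over the 14 peaks was 30.2, 30.4, 28.7, 30.0 and 37.0 CPM in WT1 to WT5 and 46.1, 39.9, 37.1, 39.4 and 37.7 CPM in KO6 to KO10. The means were 31.3 ± 3.27 CPM for WT and 40.1 ± 3.57 CPM for KO (mean ± SD, n = 5 each), a ratio of 1.28. Of the difference of 8.79 CPM between these means, 7.27 CPM, or 82.8%, was that of peak 11. This share depended on the scaling and was 83.9% with DESeq2 size factors, 97.3% with the TMM factors of the counts summed per gene and 98.2% with total counts, in which the sums of the 13 other peaks had ratios of 1.06, 1.01 and 1.01. In this scaling all 5 KO mice were above every WT mouse, but the margin between KO8 at 37.11 CPM and WT5 at 37.01 CPM was narrow. It did not hold in other scalings, added after seeing the data, in which 4 (DESeq2 size factors), 2 (TMM factors of the counts summed per gene) or 1 (total counts) of 5 KO mice were above every WT mouse. The ratio of the sums was 1.27, 1.21 and 1.2, respectively. The fit on counts summed per gene gave a log2 fold change of 0.26 (standard error 0.10) for Sos2, with the TMM factors of that fit.

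**Figure D3:**
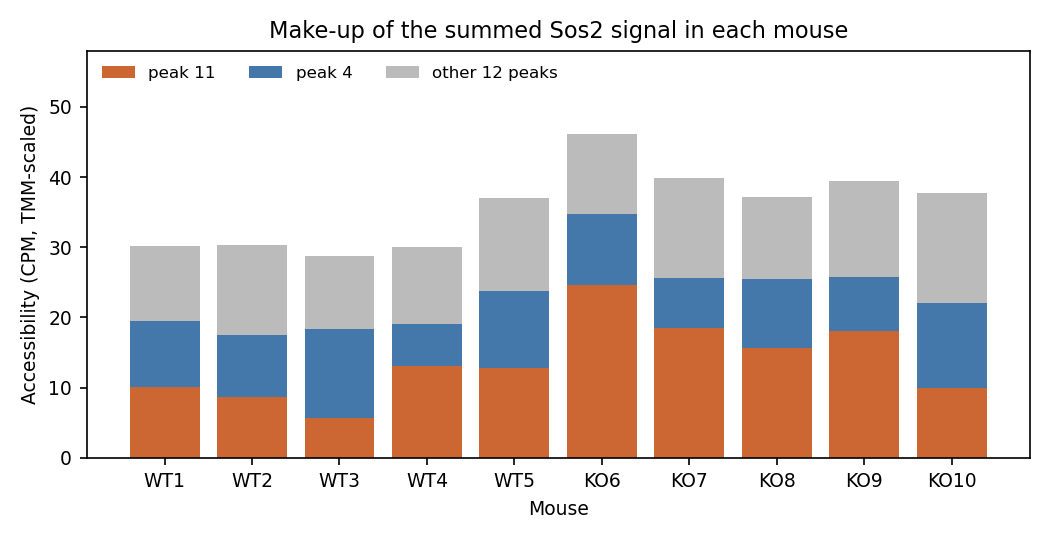
Summed Sos2 accessibility in CPM (TMM-scaled) in each mouse, divided into peak 11, peak 4 and the other 12 peaks. The part of peak 11 runs from 5.69 CPM in WT3 to 24.6 CPM in KO6, while the rest of the gene runs from 16.9 CPM in WT4 to 27.8 CPM in KO10.

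The share of Sos2 counts that fell in peak 11 does not depend on library size. It was 33.3%, 28.5%, 19.8%, 43.6% and 34.8% in WT1 to WT5 and 53.3%, 46.5%, 42.3%, 45.7% and 26.3% in KO6 to KO10. The mean was 32.0% ± 8.74 for WT and 42.8% ± 10.1 for KO (mean ± SD, n = 5 each). KO6, KO7 and KO9 were above every WT mouse, KO8 was below WT4, and KO10 was below every WT mouse but WT3. Wilson 95% intervals, which cover counting error only, ran from 15.6% to 24.8% for WT3, from 37.6% to 49.8% for WT4, from 47.2% to 59.3% for KO6 and from 20.3% to 33.3% for KO10. The share of peak 4 was 30.8% ± 8.63 (SD, n = 5) in WT mice, from 20% in WT4 to 44.1% in WT3, and 23.6% ± 5.69 (SD, n = 5) in KO mice, from 17.8% in KO7 to 32.0% in KO10.

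The count of peak 11 divided by that of peak 4 was 1.07, 0.977, 0.449, 2.18 and 1.18 in WT1 to WT5 and 2.42, 2.61, 1.60, 2.33 and 0.821 in KO6 to KO10. WT4 had a ratio like those of KO6, KO7 and KO9, and KO10 had one below those of 4 of the 5 WT mice. As a description over the 10 mice, which share the values that chose the gene and are given no test, the log2 CPM of peaks 11 and 4 had a Pearson's r of -0.44 and a Spearman's rho of -0.45. Within genotypes this r was -0.58, and without WT3 and KO6, the mice farthest from the median of peak 11, it was -0.45. For peaks 11 and 5, r was 0.14 and rho was 0.19, with an r of 0.10 within genotypes.

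**Figure D4:**
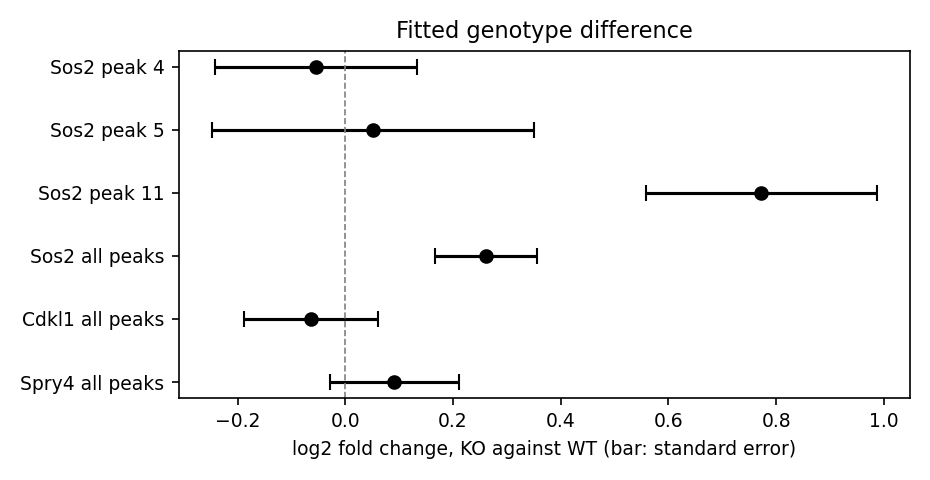
Fitted log2 fold change, KO over WT (x axis), for the tested Sos2 peaks, from the fit over peaks, and for the summed peaks of Sos2, Cdkl1 and Spry4, from the fit over counts summed per gene. Bars are standard errors and the dashed line marks no difference. The values are 0.77 for peak 11, which chose the gene, -0.05 for peak 4, 0.05 for peak 5 and 0.26 for the summed Sos2 counts.

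Cdkl1, which encodes a cyclin-dependent kinase-like protein, lies near Sos2 on chromosome 12, on the side of the Sos2 start. Its summed peaks had 10.5 ± 0.978 CPM for WT and 10.6 ± 0.897 CPM for KO (mean ± SD, n = 5 each), and the genotypes overlapped. The log2 fold change of Cdkl1 was -0.06 (standard error 0.12), with an adjusted p of 0.760 over all genes in edgeR. Its sign is opposite to that of the CPM means, which use the TMM factors of the fit over peaks, whereas the fold change comes from the fit on counts summed per gene with TMM factors of its own. Both differences were near 0 and smaller than their error. Of all 36715 genes tested, 3.91% passed an adjusted p of 0.05 and 27.5% an unadjusted p of 0.05, and Cdkl1 passed neither. On the other side of Sos2, the 4 nearest gene IDs in the running order of peaks were taken, a choice made after seeing the data. Of these, 3 were tested and had log2 fold changes from -0.35 to -0.04, and 0 passed an adjusted p of 0.05 by edgeR. At an unadjusted p under 0.05 there was 1, ENSMUSG00000049882, which is not paired with a symbol in the sources used here. Its log2 fold change was -0.35 with a standard error of 0.10 (edgeR, unadjusted p = 0.00343, adjusted p = 0.0582). Since the IDs of 1 side only are given, no direction is read for the surroundings of Sos2.

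Sos1 and 65 of the 66 genes of a list of the receptor tyrosine kinase to RAS pathway were not paired with an ID, so the pathway was not analysed as a group. The exception was Spry4, a feedback inhibitor of receptor tyrosine kinase signalling, which is paired because it is on the study's list of genes with changed transcripts. The sum of its 7 peaks was 15.8 ± 2.43 CPM for WT and 17.8 ± 1.34 CPM for KO (mean ± SD, n = 5 each). The log2 fold change of Spry4 was 0.09 (standard error 0.12), with an adjusted p of 0.637 over all genes in edgeR, within the spread between mice.

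Across the 10 mice, the 5 peaks of other genes whose log2 CPM followed that of peak 11 most closely had Pearson's r from 0.925 to 0.945, and 24 tested peaks reached 0.9. The closest belonged to ENSMUSG00000100728, with an r of 0.95, and the next to ENSMUSG00000093922, with 0.94. These IDs are not paired with symbols. Symbols were paired only for Sos2 and for genes on the study's list of genes with changed transcripts. Among peaks of these genes, named here after their values were seen, the closest was peak 11 of Thbs4, with an r of 0.918. Thbs4 is an extracellular matrix glycoprotein gene. Next was peak 5 of Cyp2c29, a cytochrome P450 gene, with an r of 0.863. The Cyp2c29 peak had 15, 23, 12, 45 and 81 counts in WT1 to WT5 and 41, 39, 35, 35 and 9 in KO6 to KO10. As at peak 11 of Sos2, WT3 and KO10 were low within their genotypes, a likeness that follows from choosing the peak by its r. With so many peaks and 10 mice, correlations of this size are a description only.

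**Figure D5:**
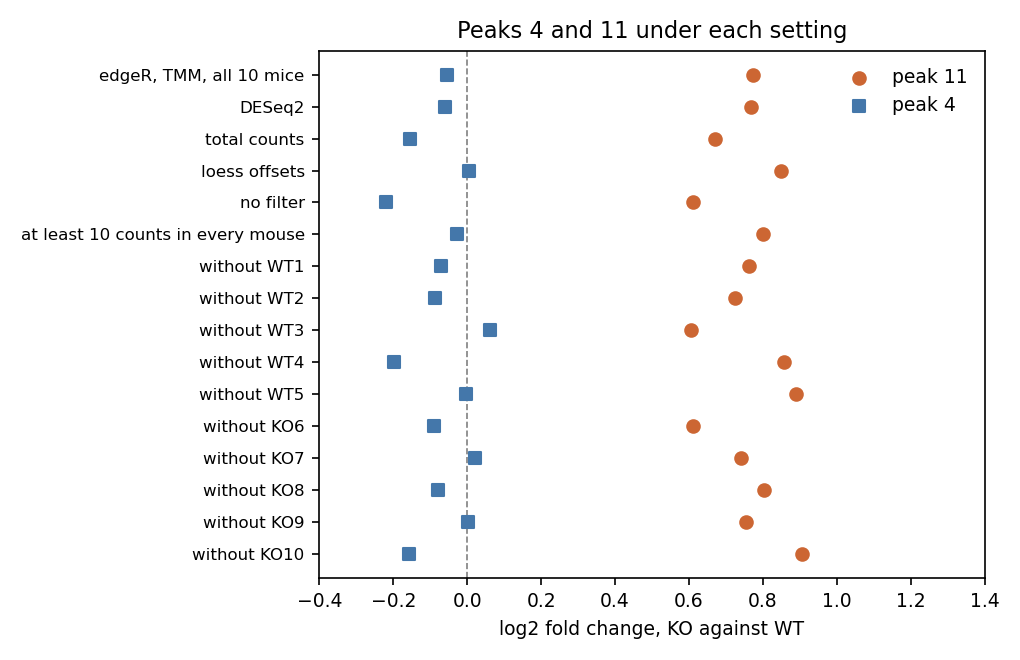
Fitted log2 fold change, KO over WT (x axis), for peak 11 (circles) and peak 4 (squares) under each setting (y axis), which are the tools, normalizations and filters tried and the fits without 1 mouse. Peak 11 stays between 0.61 and 0.91, and peak 4 lies between -0.22 and 0.061, on either side of 0.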

How the data were processed

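ATAC-seq of sorted IECs from 5 WT and 5 KO mice was analysed, with genotype and replicate number taken from the labels. The authors deposited raw counts per peak for 1 peak set common to all mice, on build mm10 per the submitters' processing notes, and a normalized signal per mouse, which was not tested. The aligner, peak caller, duplicate handling, transposase offset and the rule assigning peaks to genes are not given in the sources used here, and their effect on the counts is unknown. Of 246501 entries, 22 held no value, and 594 peaks without a gene ID (0.612% to 0.965% of counts) were left out.

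Peaks passing filterByExpr (80700) were tested with edgeR 4.0.16 (TMM, glmQLFit, glmQLFTest, R 4.3.3). The model held genotype alone, p-values were adjusted by Benjamini-Hochberg, and counts summed per gene ID were fitted likewise. The standard error is the size of the log2 fold change divided by the root of F. Log2 CPM used a prior count of 2. Single values per mouse were tested by exact two-sided permutation of the genotype labels (scipy 1.17.1, Python 3.11.15). On counts simulated for KO against WT over 77324 tested peaks, 46 of 89 tested peaks changed 2-fold and 87 of 87 changed 4-fold were recovered, with 13 false calls. The simulation changed 100 peaks per fold and drew peaks independently. In the real data 15.9% of peaks passed an unadjusted p of 0.05 by edgeR, and 0 an adjusted one. The simulated recovery therefore does not give the power for the Sos2 peaks.

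Symbols came from 302 ID pairs read from the study's list of genes with changed transcripts. In the running order of peaks, 244 of these genes formed 21 runs for 21 chromosomes, with 1 out of order. Genes to be named were every Sos2 peak, Sos1, the 4 neighbours on each side, pathway genes past the threshold and the 5 peaks most like peak 11. On the side of the Sos2 start, neighbours other than Cdkl1 are not reported here. Members and lists were chosen with earlier results of these data known. Alternatives were DESeq2 1.42.0, total counts, loess offsets (span 0.3), no filter, at least 10 counts in every mouse, a prior count of 0.5, and leaving out each mouse. The labels give each library a genotype and a number, and the study counts its ATAC-seq groups in mice. Each library was therefore taken as a separate mouse, and on this basis p-values measure the spread between mice.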

Additional observations from a re-analysis of the deposited data

Results flagged for a closer look

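For 20 measures, the 5 WT and the 5 KO mice were each searched for a mouse far from its group, with a gap to the next mouse of more than 0.71 of the group's range. This made 40 groups. About 1 in 20 is flagged by chance, and 4 were flagged here. In the sum of all Sos2 peaks, WT5 had a log2 CPM of 5.22, with the other WT mice from 4.86 to 4.94, and WT5 is also the deepest library. In the sum without peak 11, KO10 had a log2 CPM of 4.81, with the other KO mice from 4.43 to 4.45, and KO10 has the fewest total counts. At peak 8, WT1 had 0 counts and a log2 CPM of -1.92, with the other WT mice from -0.59 to -0.20. At peak 14, KO9 had 0 counts and a log2 CPM of -1.92, with the other KO mice from -1.21 to -1.06. The last 2 rest on single-digit counts. The part of depth in these values was not tested.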

How the results depend on the processing

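Of 167 alternative values computed, 157 kept their direction and side of the threshold or moved by less than the spread between mice, and 10 turned direction, each of them at peak 4 or 5. The 157 include counts of calls for the other Sos2 peaks, Spry4 and Cdkl1, which were 0 in every setting and have no direction. In some of these fits no peak or no gene passed at all. The tally is therefore no measure of how stable the results are. The log2 fold change of peak 4, -0.05, was 0.0048 with loess offsets and ranged from -0.20 to 0.061 with a mouse left out. That of peak 5, 0.05, was -0.12 with no filter, -0.22 with loess offsets and -0.061 with total counts, and ranged from -0.10 to 0.25 with a mouse left out. The cause was not tested. For peak 11 it was 0.77 with DESeq2, 0.85 with loess offsets, 0.67 with total counts, 0.61 with no filter and 0.80 with at least 10 counts in every mouse. The sum of all Sos2 peaks ranged from 0.22 to 0.36 with a mouse left out, and the share of counts in peak 11 differed by 7.75 to 14.9 percentage points. The log2 difference of the sum without peak 11 ranged from 0.02 to 0.15 with a mouse left out.

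Of the Sos2 peaks other than peak 11, 0 passed an adjusted p of 0.05 in any edgeR or DESeq2 fit. By edgeR, peak 9 had an unadjusted p of 0.0451 with no filter (adjusted p = 0.352). Peak 3 passed the filter in some fits with fewer mice. Its unadjusted edgeR p was 0.0326 without WT2, 0.0211 without KO6 and 0.0443 without KO8 (adjusted p = 0.216, 0.263 and 0.322). Of all peaks in these fits, 33824 of 245885 passed an unadjusted p of 0.05 with no filter. The numbers were 16279 of 86076 without WT2, 11917 of 84377 without KO6 and 12488 of 84165 without KO8. Over all peaks the number past an adjusted p of 0.05 was 0 by edgeR and 555 by DESeq2, 836 with at least 10 counts in every mouse, 373 with no filter, and from 0 to 1941 (without WT2) with a mouse left out. Over genes it was 1434 by edgeR, against 303 with loess offsets, 890 with total counts and 2188 by DESeq2. Leaving out a mouse gave between 0 (KO6, KO9, KO10, WT3 or WT5 left out) and 3310 (WT2 left out). No paired analysis was possible because no replicate number occurs in both genotypes. Alternatives for Sos1 were not run, since its ID was not paired. The 11 untested peaks held at most 35 counts in a mouse, and the part of depth in this was not tested.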
